A study of Mus musculus with 4 samples.

Results

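Nup98-HoxA9 ES cells were compared with HoxA9-Ct ES cells, the transgenic line that carries only the homeobox part of the fusion. The comparison takes 3 of the 4 arrays of the series: Nup98-HoxA9 clone #1, Nup98-HoxA9 clone #9 and HoxA9-Ct ES, 1 array each. All lines descend from EB3 mouse ES cells, grown on gelatin with serum and LIF. Nup98-HoxA9 joins the N-terminus of human Nup98 to the C-terminus of HoxA9, and HoxA9-Ct is that C-terminus alone, with the homeodomain. Both coding sequences were inserted into the genome from the same Tol2 transposon vector, the transfected cells were selected with hygromycin B, and colonies were picked, so that these steps are shared by the 3 lines. Parental ES cells went through none of them, and their level is given only for orientation. HoxA9-Ct ES is represented by a single clone and a single array, so a difference that belongs to that clone cannot be told apart from one that belongs to the transgene. All arrays come from 1 slide, scanned once.

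The fusion is found in acute myeloid leukaemia, where the repeats of the nucleoporin Nup98 are attached to a homeodomain that binds DNA. Homeobox genes of the Hox-A to Hox-D clusters encode the transcription factors that give cells their position along the body axis, and most are kept silent by Polycomb proteins in ES cells. HOX proteins bind DNA together with TALE homeodomain proteins of the Pbx and Meis families, and retinoic acid is a classical inducer of Hox genes. Primitive endoderm is the extraembryonic layer that arises beside the pluripotent epiblast in the blastocyst. Its regulators Gata4, Gata6 and Sox17 are low in most cells of an ES culture.

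Levels below are log2 processed signals relative to the 75th percentile of the array, after averaging the spots of a probe, and are compared only within a gene. A signal that Feature Extraction does not call well above background is termed dim, and a fold between a measured and a dim line is a lower bound, written as at least. The labelled cell type was borne out in each line, since all 6 ES cell markers were well above background on all 4 arrays, with a summed level of 414 to 431 in units of the 75th percentile. Of 6 primitive endoderm markers, 6 were detected in either of the Nup98-HoxA9 clones, with a summed level of 3.61 and 4.45, against 3 in HoxA9-Ct ES (0.505) and 5 in parental ES cells (0.992). Trophectoderm markers well above background numbered 3 of 6 in clone #1, 4 in clone #9 and 1 in the other lines, while their summed level was 1.35 and 1.13 in the clones, 1.08 in HoxA9-Ct ES and 0.771 in parental ES cells. Neural markers numbered 2 of 4 in the clones and 3 in the other lines. Of 6 fibroblast markers, 3 were detected in the clones and parental ES cells and 2 in HoxA9-Ct ES, with Col3a1 dim in all transgenic lines and a summed level of 17.4 in clone #9 against 7.64 to 10.5 in the remaining lines. Mesoderm and blood markers stayed at 1 of 4 and 2 of 3 in every line. The part of these marker differences in the results below was not tested. Since RNA was taken from bulk cultures, more cells of a type and more RNA per cell cannot be told apart.

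Most genes did not distinguish the transgenic lines. Of 25893 probes well above background in all 3, 92.2% lay within 2-fold of HoxA9-Ct ES in both clones. In limma, with both clones against HoxA9-Ct ES, 374 of 55562 probes (0.673%) were called higher and 382 (0.688%) lower at a Benjamini-Hochberg adjusted p of 0.05. Read at 1 probe per gene, 193 of 20257 genes with a RefSeq symbol (0.953%) were called higher and 116 (0.573%) lower. A stricter description asks that each clone differ by more than 4-fold, bounds included. By this rule 82 of 30180 probes well above background in at least 1 of the 3 lines were higher (0.272%) and 49 lower (0.162%). All of them were also called by limma, but the common standard error described in the next paragraph fixed this in advance. At 1 probe per gene, 55 genes were higher (0.272%) and 23 lower (0.114%), and 17 of the 55 belong to the Hox clusters.

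The limma calls carry a limit. With 1 residual degree of freedom the fit gave all probes the same standard error, 0.56 on the log2 scale. A call therefore acts much like a threshold on the fold change, whatever the gap between the clones. The test takes dim signals as measured, also where the printed fold is a lower bound. Of the 382 probes called lower, 147 were dim in all 3 lines and 124 were well above background on the HoxA9-Ct array alone. Among the 374 called higher, 4 were dim in all 3 lines. The clones lay on opposite sides of HoxA9-Ct ES at 43 probes called higher and 2 called lower. No probe passed when only probes well above background were tested (1024 higher and 1075 lower at an unadjusted p of 0.05) or after quantile normalization (2131 and 3263). Probes printed in the final eighth of the rows of an array (end rows below) were 12.3% of all. They made up 24.1% of those called higher and 31.4% of those called lower. Genes read there are marked as such where their difference is given.

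**Figure D1:**
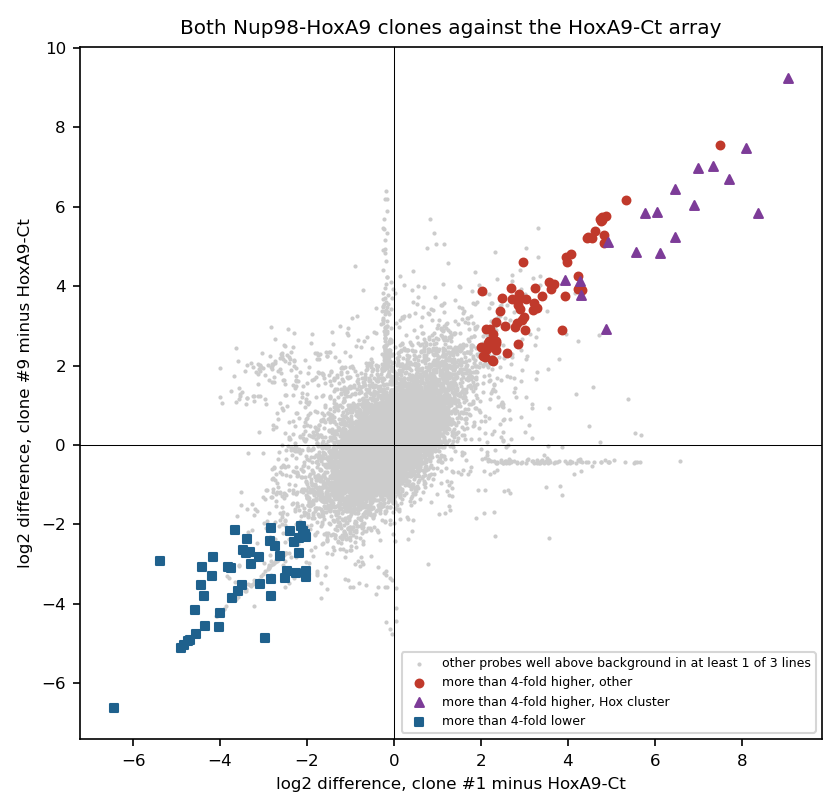
Difference from HoxA9-Ct ES of Nup98-HoxA9 clone #1 (x axis) and clone #9 (y axis) on the log2 scale, 1 point per probe well above background in at least 1 of the 3 lines. Purple triangles are the 18 probes with a Hox gene symbol and red points the 64 other probes more than 4-fold higher in each of the clones. Probes named only by chromosome position count as other, wherever they lie. Blue squares are the 49 probes more than 4-fold lower. Values of dim lines are plotted as measured.

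Hox cluster genes formed the upper end of the comparison. Of 40 genes measured, 22 were called higher and 1 lower, beside 0.953% and 0.573% of all genes; 17 exceeded 4-fold and 10 exceeded 10-fold in both clones, beside 0.0861% of all detected probes beyond 10-fold. Well above background were 27 of them in both clones, 9 in HoxA9-Ct ES and 6 in parental ES cells. Their median difference from HoxA9-Ct ES was 3.71 in clone #1 and 2.78 in clone #9, or 1.48 with the mean of the clones set against the background limit, beside a median of -0.11 over all genes with a symbol. In the Hox-A cluster, 11 of 12 genes were called higher and passed 4-fold, with Hoxa13, the 5′ end of the cluster, dim in all lines.

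The promoters of 3 of these Hox-A genes and of Foxa2, an endoderm gene described further on, are shown because they belong to genes that stood far apart between the lines. They are the 250 bases before a transcription start listed by RefSeq (GRCm38.p6), 5′ to 3′ on the gene's strand: chr6:52213068-52213317 (minus strand) for Hoxa3, chr6:52218574-52218823 (minus strand) for Hoxa7, chr6:52234940-52235189 (minus strand) for Hoxa10 and chr2:148045465-148045714 (minus strand) for Foxa2. Where a gene has several listed starts (2 for Hoxa10 and 3 for Foxa2), the one with the most different motifs present was taken. Capitals mark matches on either strand to 4 motifs. TGATTTAT is a joint Pbx and Hox site, and TTTATG is the core bound by 5′ Hox proteins. AGATAA is the GATA factor site, and TATAAA is the sequence of a TATA box, marked wherever it occurs. The first pair can overlap.
Hoxa3: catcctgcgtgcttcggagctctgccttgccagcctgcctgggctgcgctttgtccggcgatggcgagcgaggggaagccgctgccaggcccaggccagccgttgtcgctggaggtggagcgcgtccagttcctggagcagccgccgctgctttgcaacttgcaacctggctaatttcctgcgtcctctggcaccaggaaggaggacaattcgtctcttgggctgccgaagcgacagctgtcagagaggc
Hoxa7: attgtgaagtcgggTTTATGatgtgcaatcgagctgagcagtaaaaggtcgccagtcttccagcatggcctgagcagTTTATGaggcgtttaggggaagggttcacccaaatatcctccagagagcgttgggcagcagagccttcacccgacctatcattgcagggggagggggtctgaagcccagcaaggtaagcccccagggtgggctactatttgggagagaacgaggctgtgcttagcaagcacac
Hoxa10: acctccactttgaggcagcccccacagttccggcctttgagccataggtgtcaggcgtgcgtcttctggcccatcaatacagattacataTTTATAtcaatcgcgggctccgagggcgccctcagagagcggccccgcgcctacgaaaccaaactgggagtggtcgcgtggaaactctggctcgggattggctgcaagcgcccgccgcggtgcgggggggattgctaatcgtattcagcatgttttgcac
Foxa2: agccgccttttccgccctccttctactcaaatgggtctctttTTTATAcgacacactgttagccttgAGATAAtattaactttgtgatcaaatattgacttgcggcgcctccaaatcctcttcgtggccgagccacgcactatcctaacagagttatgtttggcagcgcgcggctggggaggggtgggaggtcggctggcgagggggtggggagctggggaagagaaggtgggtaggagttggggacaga

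Hoxa7 holds 2 matches to TTTATG, Hoxa10 1 match to TATAAA, Foxa2 1 match each to AGATAA and TATAAA, and Hoxa3 none. RefSeq starts were matched for 38 of the 56 genes with a probe more than 4-fold higher. TTTATG was found for 3 of these 38 (Hoxa7, Hoxb8 and Selenop), beside 10.8% of all 32851 windows of this length, and TGATTTAT for 0, beside 0.837%. AGATAA was found for 3 (Dpp4, Exoc3l4 and Foxa2), beside 9.99%, and TATAAA for 9, beside 12.4%. Starts were matched for 14 of the 26 genes with a probe more than 4-fold lower. TATAAA was found for 4 of these 14, AGATAA for 2, TTTATG for 1 and TGATTTAT for 0. A gene with several starts has several windows, so its chance of a match is larger than that of a single window.

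Hoxa7, a central Hox-A gene measured in every line, had a level of 4.93 in clone #1, 4.61 in clone #9, -2.42 in HoxA9-Ct ES and -2.73 in parental ES cells. The clones were 146-fold above HoxA9-Ct ES, a log2 difference of 7.19 (SE 0.56, limma adjusted p = 4.03e-34). Hoxa3, an anterior gene of the cluster, stood at 2.68 and 2.83 in the clones, and at -6.40 in HoxA9-Ct ES and -6.44 in parental ES cells, both dim. This made it at least 127-fold higher in the clones (limma adjusted p = 6.59e-56). Hoxa11os, the noncoding antisense neighbour of Hoxa11, was measured at 3.41 and 2.54 in the clones against -3.50 in HoxA9-Ct ES, 88.6-fold (adjusted p = 1.85e-27). Hoxa11 itself stood at 1.55 and 0.54 against a dim signal, at least 38.9-fold.

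Hoxa10, a 5′ gene linked to blood progenitors, had levels of 1.85 and 1.23 in the clones and was dim in HoxA9-Ct ES, at least 54.8-fold lower. Hoxa9, the partner gene of the fusion, was at 0.62 in clone #1 and 0.69 in clone #9, and dim in HoxA9-Ct ES (-5.15) or parental ES cells (-4.58), a difference of at least 29.7-fold. A second Hoxa9 probe differed by 6.47 on the log2 scale. Whether these probes lie within the HoxA9 part carried by either transgene was not tested, so they do not check the labels. The clones were also at least 25.4-fold higher for Hoxa5, 14.7-fold for Hoxa6, 8.75-fold for Hoxa4 and 4.44-fold for Hoxa2. These 11 genes were taken because they were called and passed 4-fold, so their separation is no further result. The signal on the 1 HoxA9-Ct array was dim at 8 of them.

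In the Hox-B cluster 6 of 10 genes were called higher, Hoxb2 and Hoxb4 to Hoxb8. Hoxb8, an inducer of myeloid progenitor growth, had levels of 0.06 in clone #1 and -1.17 in clone #9 and was dim in HoxA9-Ct ES (-6.40), at least 12.8-fold lower. Hoxb7 was at least 11.5-fold and Hoxb4, a factor for blood stem cell expansion, at least 11.4-fold higher; the single Hoxb4 probe lies in the end rows. Hoxb2 was at least 5.33-fold, Hoxb6 at least 4.96-fold and Hoxb5 at least 2.18-fold higher. Hoxb3 was at -2.29 and -2.77 in the clones and -1.35 in HoxA9-Ct ES, a difference of -1.18 that did not pass (adjusted p = 0.626), at an end-row probe. Hoxb9 and Hoxb13 did not pass either, and Hoxb1 was dim in all lines.

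In the Hox-C cluster 4 of 9 genes were called higher. Hoxc6 stood at 1.88 in clone #1 and -0.64 in clone #9 against a dim signal in HoxA9-Ct ES (-6.49), at least 28.9-fold (adjusted p = 2.06e-33). Hoxc4, at 1.75 and -0.22 against -3.14, was 14.9-fold higher, and Hoxc5 and Hoxc9 were at least 3.25-fold and 3.02-fold higher. The Hox-D cluster differed little: Hoxd1 was called higher with a bound of only 1.14-fold, at an end-row probe, Hoxd4 was called lower, at least 2.85-fold, and 6 of 9 genes were dim in all 3 lines.

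The clones themselves differed by cluster. The 11 called Hox-A genes had a median difference between clone #1 and clone #9 of 0.16 on the log2 scale, with clone #1 above at 7 of them. Clone #1 was above clone #9 at all 6 called Hox-B genes, by 0.53 to 1.30 (median 1.04), and at all 4 called Hox-C genes, by 0.17 to 2.53 (median 1.95). With 1 array per clone these differences have no replicate. Hox-C genes lie on chromosome 15, where the median difference of clone #9 from HoxA9-Ct ES was 0.31 over 837 probes, against -0.11 over the other chromosomes; in clone #1 it was 0.00, and the part of this shift in the chromosome 15 results was not tested.

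**Figure D2:**
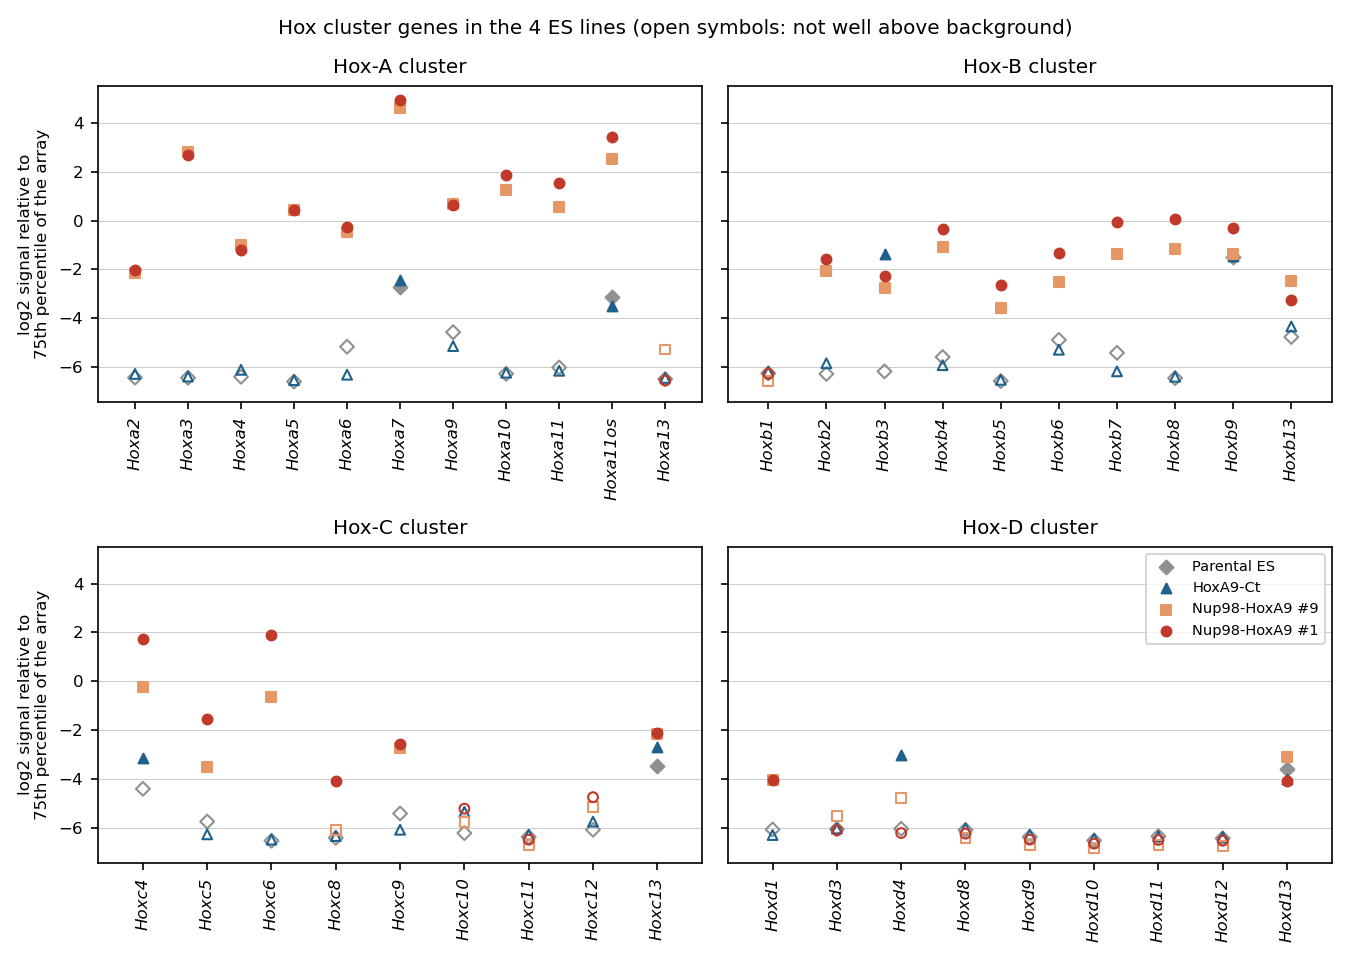
Level of Hox cluster genes (log2 signal relative to the 75th percentile of the array) in Nup98-HoxA9 clones #1 and #9, HoxA9-Ct ES and parental ES cells, 1 array each, with open symbols for dim signals. The clones lie above HoxA9-Ct ES at the Hox-A genes shown up to Hoxa11os, at most Hox-B genes and at 4 called Hox-C genes, while Hoxd4 and Hoxb3 lie the other way.

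Among TALE partners of Hox proteins, 1 of 11 genes was called. Pbx3, a cofactor often raised together with HOXA9 in leukaemia, was at 3.09 and 3.33 in the clones, 0.26 in HoxA9-Ct ES and 0.44 in parental ES cells. It was 7.74-fold higher (log2 difference 2.95, limma adjusted p = 3.55e-05). Meis1, the best known partner of HOXA9 in leukaemia, was at -2.44 and -2.18 against -2.55, a difference of 0.24 that did not pass. The remaining cofactors differed by -0.94 (Pknox2) to 0.17 (Pbx2). Of 19 genes linked to HOXA9 in leukaemia, 1 was called: Baalc, at least 5.02-fold higher, and it lies on chromosome 15. Myb, a regulator of blood progenitors, was at -2.47 and -2.08 against -0.41 and stayed outside the threshold (adjusted p = 0.0545).

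The second group that stood higher in the clones consisted of primitive endoderm genes. Of 18 measured, 10 were called higher and 0 lower, beside 0.953% of all genes called higher, and 8 passed 4-fold in both clones, with a median difference of 2.08. At 9 of the 10 called genes the parental level lay between HoxA9-Ct ES and both clones; the other one, Pdgfra, was dim in HoxA9-Ct ES and parental ES cells alike, so that their order was not measured. Gata6, a master regulator of this lineage, was at 0.24 in clone #1 and 0.53 in clone #9, -3.38 in HoxA9-Ct ES and -1.998 in parental ES cells, 13.6-fold higher in the clones than in HoxA9-Ct ES (adjusted p = 1.02e-08). Gata4, its partner factor, was at -0.72 and -0.53 against -3.67, with -2.50 in parental ES cells, 8.23-fold.

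Sox17, a further endoderm regulator, was at -0.91 and -0.66 in the clones, -2.80 in parental ES cells and dim in HoxA9-Ct ES, at least 10.9-fold lower; a second probe differed by 3.39 on the log2 scale. Dab2, an endocytic adaptor that orders the endoderm layer, was at -1.11 and -0.56, with -2.62 in parental ES cells, and at least 10.6-fold higher than in HoxA9-Ct ES, at a chromosome 15 probe. The growth factor receptor gene Pdgfra was at least 7.39-fold and the pioneer factor gene Foxa2 at least 6.38-fold higher; the Foxa2 probe lies in the end rows and a second one differed by 1.90. Hnf4a (4.04-fold) and the proteoglycan gene Srgn (4.76-fold) were called as well.

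Structural products of this layer did not move together. The collagen IV chains Col4a1 and Col4a2 were 4.40-fold and 5.13-fold higher, and the collagen chaperone gene Serpinh1 was 4.27-fold higher, at 2.68 and 3.06 against 0.77. In contrast, Sparc, Lamb1 and Lamc1 differed by -0.00, -0.02 and 0.17 on the log2 scale. Of 14 basement membrane genes 3 were called, all higher. Lama1 (1.19), Cubn (1.73) and Amn (1.71) did not pass. Among 17 visceral endoderm genes only Dab2, which both lists hold, was called, and the serum protein genes Afp, Apoa1 and Apob were dim in all lines. Of 18 trophectoderm genes, Elf5, Hand1 and Krt7 were called higher, each with 1 clone near or below the background limit or with a wide gap between clones: Krt7 was at -3.39 in clone #1 and -1.12 in clone #9.

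Retinoic acid genes came next, with 4 of 16 called higher and 0 lower, beside 0.953% of all genes called higher. Aldh1a2, which makes retinoic acid from retinal, was at 0.20 in clone #1, 2.04 in clone #9, -1.83 in HoxA9-Ct ES and -1.91 in parental ES cells, 7.74-fold higher (limma adjusted p = 3.55e-05). Stra8, a germ cell gene induced by retinoic acid, was at 4.10 and 6.18 against 2.31 and was 7.14-fold higher. The receptor gene Rarb was at least 3.27-fold higher, and Cyp26a1, which degrades retinoic acid, at least 2.72-fold. Clone #9 exceeded clone #1 at all 4, by 1.25 to 2.08, the reverse of the order seen in the Hox-B and Hox-C clusters. The retinaldehyde reductase gene Dhrs3 (1.88, adjusted p = 0.0515) was just outside the threshold, and the receptors Rara (-0.18) and Rarg (0.52) did not pass.

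**Figure D3:**
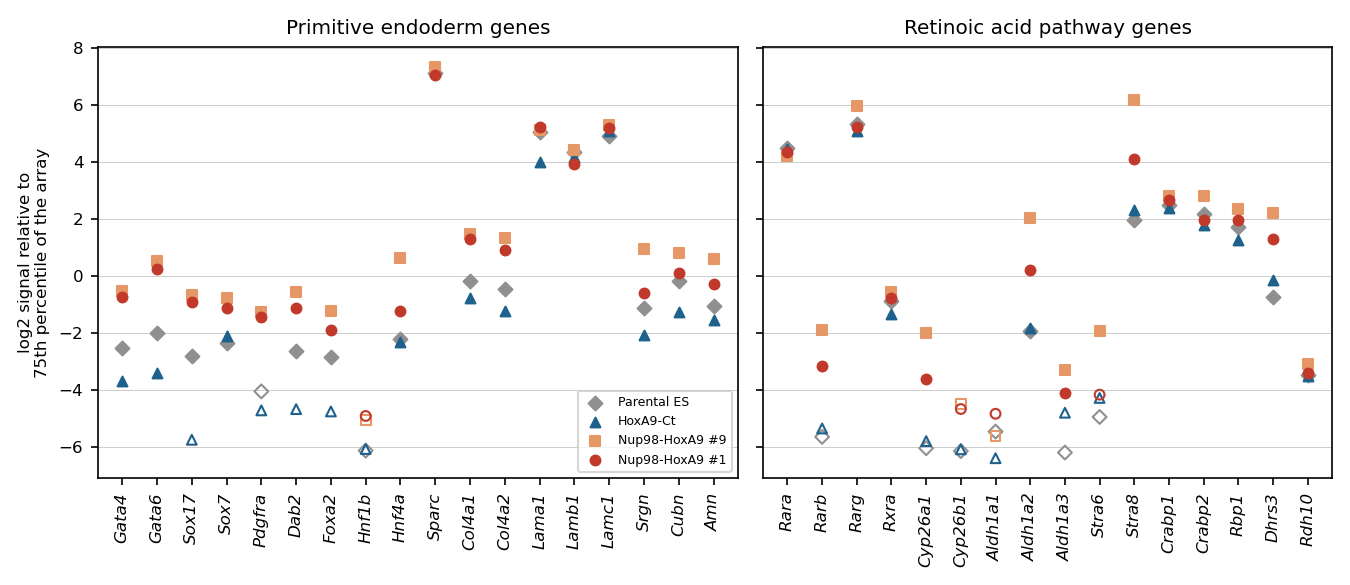
Levels of 18 primitive endoderm genes (left) and 16 retinoic acid pathway genes (right) as log2 signal relative to the 75th percentile of the array, 1 array per line, with open symbols for dim signals. For Gata4, Gata6, Sox17, Dab2 and Foxa2 the parental point lies between HoxA9-Ct ES and the clones, while for Aldh1a2, Stra8, Rarb and Cyp26a1 it lies close to HoxA9-Ct ES and clone #9 lies highest.

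Beyond these groups, differences were found at single genes of various functions and at array entries without a RefSeq symbol. The widest of the latter were cDNA entries. AK053996 was at 1.34 and 1.39 in the clones and dim in HoxA9-Ct ES and parental ES cells, at least 48.5-fold higher in the clones. AK145555 was at least 43.5-fold and AK145700, at an end-row probe, 39.7-fold higher. Both belong to the 13 probes of 7 entries described at the end. Whether those probes read separate transcripts was not tested. Bhmt, which remethylates homocysteine in liver, was at -0.79 and -0.08 in the clones, -4.03 in HoxA9-Ct ES and -4.06 in parental ES cells, 12.1-fold higher (adjusted p = 6.76e-08), and other Bhmt probes differed by 3.41 and 3.87. The water channel gene Aqp8 was 14.4-fold higher, at 0.24 and 0.06 against -3.70, though a second probe differed by 2.22 on the log2 scale. Foxq1, a forkhead factor gene, was at least 11.1-fold higher. Dkk1, a secreted Wnt inhibitor that is itself a Wnt target, was at least 4.65-fold higher and the only one of 15 Wnt targets called. Igf2, the imprinted growth factor, was at least 2.86-fold higher and the only one of 26 imprinted genes called. Of 20 genes of the ATF4 and unfolded protein response, Vldlr (5.82-fold) and Atf3 (at least 2.89-fold) were called.

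Genes lower in the clones were fewer and did not gather in a list. Spink1, a secreted trypsin inhibitor, was at 0.62 in clone #1, 0.52 in clone #9, 4.20 in HoxA9-Ct ES and 3.99 in parental ES cells, 12.3-fold lower in the clones (log2 difference -3.63, limma adjusted p = 5.04e-08). Egr1, an immediate early transcription factor downstream of ERK, was at -1.55 and -2.54 against 1.27, with 1.56 in parental ES cells, 9.94-fold lower (adjusted p = 1.25e-06). It was the only one of 18 ERK response genes called. Fos (-0.10), Dusp6 (-0.36) and Spry2 (-0.43) did not pass.

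Otx2, a homeobox factor of the primed epiblast and forebrain, was at 2.47 and 1.34 in the clones, 4.50 in HoxA9-Ct ES and 3.84 in parental ES cells, 6.06-fold lower (adjusted p = 0.000642), at an end-row probe. Of 14 primed epiblast genes, 10 differed by less than 0, as did most genes with a symbol, whose median was -0.11. The list's median was -0.68. No other gene of the list passed. Grhl2, an epithelial regulator, was closest, at -0.05 and -0.76 against 1.46 (adjusted p = 0.055). The neural factor genes Pax6 and Neurod1 were called lower among 22 neural genes: Pax6 was dim in both clones and at -3.45 in HoxA9-Ct ES, a fall of at least 2.10-fold, and Neurod1 was close to HoxA9-Ct ES in clone #1 (-3.55 against -2.91) and dim in clone #9. Insm1 (at least 6.27-fold), Irgm1 (at least 4.85-fold), Jakmip2 (at least 5.22-fold) and Ppp1r1a (5.19-fold) were lower in the clones and well above background in parental ES cells. Gbp4 was dim in clone #1, at -4.47 in clone #9, -1.94 in HoxA9-Ct ES and -1.85 in parental ES cells. Myl9, a myosin light chain of contractile cells, was 5.52-fold lower, at -0.12 and 0.62 against 2.72.

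A further set was high on the HoxA9-Ct array alone. In 23 of the 49 probes more than 4-fold lower both clones were dim, and in 18 of these parental ES cells were dim as well. Among them are Clec4f, a lectin gene of liver macrophages (-1.39 in HoxA9-Ct ES, at least 8.76-fold), Dsc3, a desmosomal cadherin (at least 6.44-fold), Olfr1026, Ankrd2 and F830016B08Rik. The probes of Dsc3, Olfr1026 and Ankrd2 lie in the end rows, as do 38.8% of the 49. Msx3, a homeobox gene of the dorsal neural tube, differed from these: it was at 0.28 and 0.57 in the clones, 3.56 in HoxA9-Ct ES and dim in parental ES cells (-4.98), so that all 3 transgenic lines lay above it. Tex13b, a germ cell gene on the X chromosome, was at -3.80 and -1.33 against 1.59, with -2.18 in parental ES cells.

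For the position of parental ES cells, signals below the background limit were set to it. Lines that are both dim then fall within 2-fold by this setting, without a measured agreement. For 62 of the 82 probes more than 4-fold higher, among them 17 of 18 Hox probes, HoxA9-Ct ES lay within 2-fold of parental ES cells. These include probes dim in both lines, such as those of Hoxa3 and Hoxa10. For 26 of the 49 probes more than 4-fold lower, parental ES cells lay within 2-fold of the clone mean and not of HoxA9-Ct ES. At 18 of the 49, both clones and parental ES cells were dim, so the directions cannot be compared by these counts. These counts describe 1 HoxA9-Ct array.

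The pluripotency network stood level, as most genes did. None of 22 naive pluripotency genes was called, and the median difference was -0.06. In both clones 20 of them lay within 2-fold of HoxA9-Ct ES, beside 92.2% of all probes well above background in the 3 lines. Of all 20257 genes with a symbol, 19948 were not called, so a list without calls does not set its members apart. Pou5f1, the central pluripotency factor, was at 6.49 and 6.28 in the clones, 6.44 in HoxA9-Ct ES and 6.56 in parental ES cells. Nanog (0.10) and Sox2 (-0.20) differed as little, and the 2 exceptions were Dppa3, at -2.33 and -3.43 against -1.85, and Lin28a, at 4.78 and 4.34 against 5.57. None of 14 genes of the LIF and STAT3 pathway was called.

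**Figure D4:**
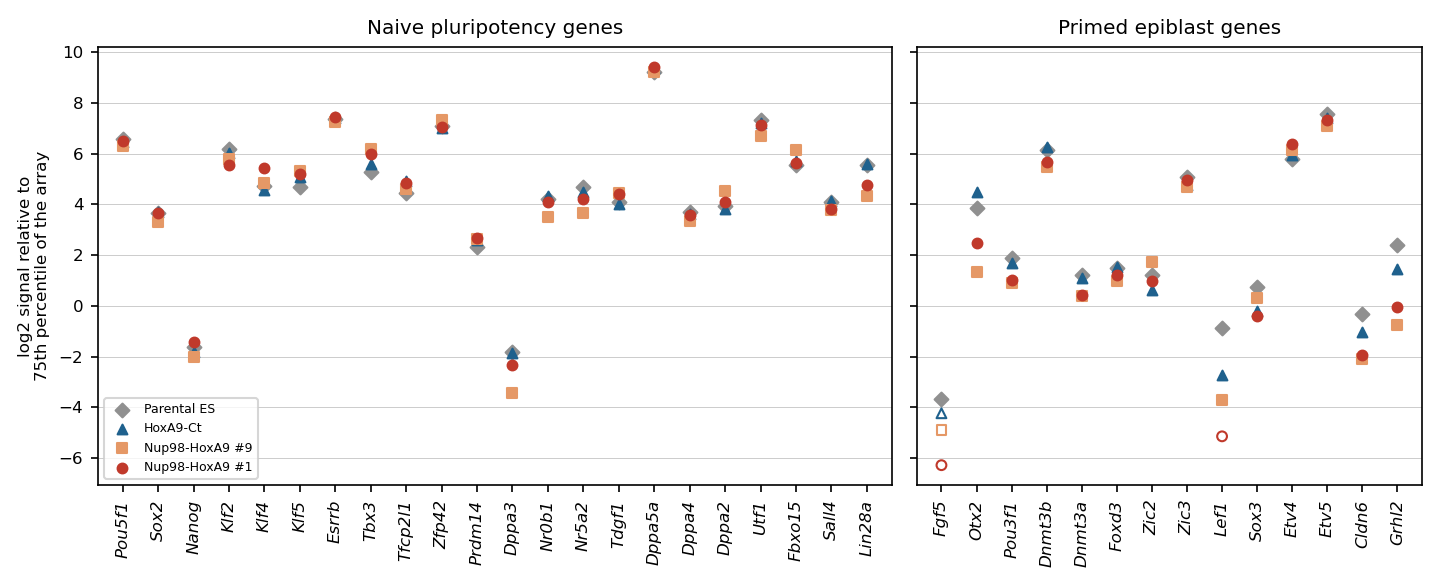
Levels of 22 naive pluripotency genes (left) and 14 primed epiblast genes (right) as log2 signal relative to the 75th percentile of the array, 1 array per line, with open symbols for dim signals. Naive genes overlap between lines apart from Dppa3 and Lin28a, and Otx2, Lef1 and Grhl2 show the widest gaps among primed genes.

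The machinery related to the fusion also stood level, again like most genes. None of 36 nucleoporins and transport receptors was called, with a median difference of -0.11. Nup98 was at 1.12 and 0.92 against 1.31, and Xpo1, which encodes the export receptor Crm1, at 4.12 and 4.11 against 3.92. Whether the mouse Nup98 probe also reads the human Nup98 part of the fusion was not tested. None of 30 Polycomb and Trithorax subunits was called, nor was any of 9 DNA methylation enzymes, among which Dnmt3l differed by -1.16. Gapdh and Actb differed by -0.13 and -0.29, the latter at an end-row probe, and none of 13 housekeeping genes was called. Altogether 17 of the 39 lists held no called gene, by the limma test described; the unadjusted calls over all probes were 1529 higher and 2108 lower.

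**Figure D5:**
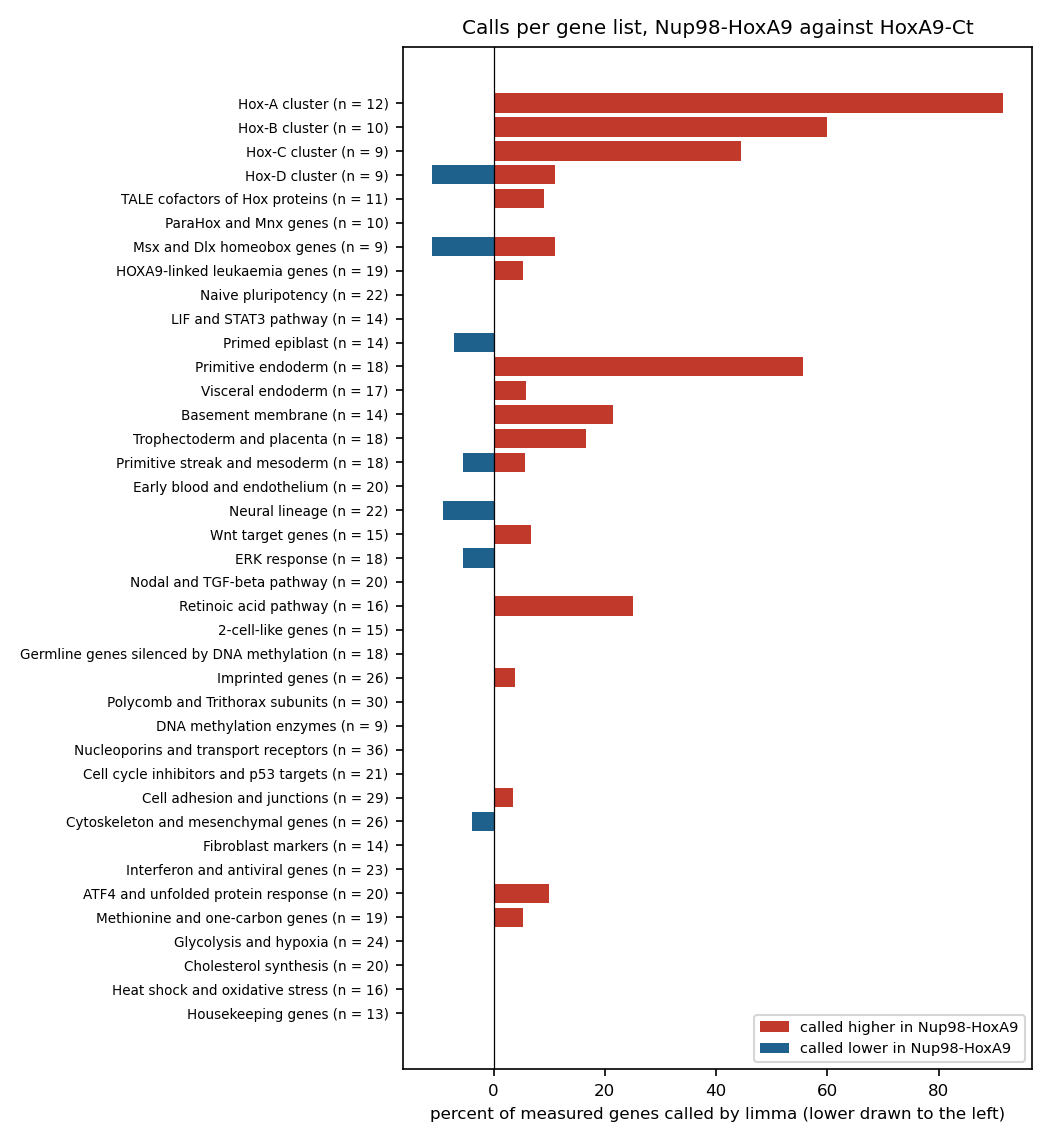
Percent of the measured genes of each of 39 lists called higher (red, to the right) or lower (blue, to the left) by limma in Nup98-HoxA9 than in HoxA9-Ct ES, with the number measured beside each name. Hox-A, Hox-B, primitive endoderm and Hox-C lists reach the highest shares, beside 0.953% higher and 0.573% lower over all genes.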

How the data were processed

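RNA of 4 ES cell lines was labelled with Cy3 and hybridised to Agilent SurePrint G3 Mouse arrays. The authors extracted the images with Agilent Feature Extraction 10.10.1.1, per the labels, and deposited the processed spot intensity, background subtracted and spatially detrended. Their deposited series matrix, intensity values that are a constant multiple of it on each array, was an alternative. Control spots and outlier spots were left out, log2 signals were scaled to each array's 75th percentile, and spots of a probe were averaged, giving 55562 probes. A gene was read at its probe with the highest mean; 26762 probes have a RefSeq symbol. Other probes of a named gene are given where well above background. Lower bounds use the lowest normalized signal well above background of the array (-4.62 to -4.23).

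limma 3.58.1 (R 4.3.3) fitted 3 groups over all 4 arrays, with 1 residual degree of freedom. The lone HoxA9-Ct array is assumed to vary like the clones. All p-values rest on 1 SD, 0.454 on the log2 scale, shared by all probes and estimated from the differences between 2 clones. They test the difference of the signals as measured, dim ones included, and not the lower bound. The fit was also run on simulated data with 1 common SD for all probes and the same shift in both clones. That run could not check whether a common SD holds for the measured data. Named genes are the 15 largest differences in each direction among called genes, up to 6 called members per list (the 2 largest where none was called) and 8 reference genes (Hoxa9, Nup98, Xpo1, Pou5f1, Sox2, Nanog, Gapdh and Actb); other members are named from the lists as examples, after their values were seen. The members and lists were chosen with earlier results of these data known. Array number limits the precision. Promoter sequences are from RefSeq (GRCm38.p6). Results of 2 genes that meet the naming rule are not reported here.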

Additional observations from a re-analysis of the deposited data

How the results depend on the processing

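No paired analysis was possible because HoxA9-Ct ES has a single array and its label carries no replicate number. The 374 probes called higher and 382 called lower by limma numbered 0 and 0 with quantile normalization (2131 and 3263 at an unadjusted p of 0.05) and 0 and 0 with only probes well above background in at least 1 transgenic line (1024 and 1075), with prior degrees of freedom of 0.821 and 2.17 in place of infinite ones; all 68 called genes among the 109 named lost their call in both. With trend and robust estimation the lower calls numbered 781. A fit on the mean over the probes of each gene, 37080 genes, called 838 higher and 1006 lower, with prior degrees of freedom of 92.0. The 82 probes more than 4-fold higher and 49 lower became 28 and 6 with normexp correction (on the median pixel, since no mean signal is in the files; chosen after seeing the data), 313 and 460 at 2-fold and 26 and 4 at 10-fold. Taking 1 clone alone gave 150 to 327 higher and 131 to 152 lower: 327 and 131 for clone #9, 150 and 152 for clone #1. Without the last eighth of the rows 30 probes were lower. The median difference over 40 Hox genes, 3.40, was 0.56 with normexp and 1.48 with a floor at the background limit, and 2.78 to 3.71 from 1 clone alone. Apart from these, the settings run left the probe counts within 1.5 times the values given and the Hox median within the spread between clones, and no named difference changed sign in any setting where it was called. Normexp ended the call of 20 named genes, trend and robust estimation of 10 (Aldh1a2, Stra8 and Tex13b among them) and the floor of 7 (Hoxb5, Hoxd1 and Pax6 among them). A weak signal, under the background limit in HoxA9-Ct ES for most Hox genes, leaves only bounds on their folds.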

Other observations

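The 2-cell-like genes, expressed in a rare ES cell state that resembles the 2-cell embryo, differed between the clones. None of 15 measured was called, and at 10 of the 13 well above background in at least 1 of the 3 lines clone #1 lay below HoxA9-Ct ES and clone #9 above it. The median difference was -1.15 in clone #1 and 1.37 in clone #9. Zscan4f was at 0.15 in clone #1, 5.17 in clone #9, 3.25 in HoxA9-Ct ES and 3.27 in parental ES cells, and Gm4340 at -0.27, 4.19, 2.96 and 3.16. Members of the Zscan4 and Usp17l families are near-identical copies, so their probes cannot be assigned to single genes with certainty.

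A few other genes more than 4-fold higher in both clones were picked out after their values were seen. Rhox5, an X-linked homeobox gene of extraembryonic tissue, was at 7.06 and 7.49 in the clones, 4.88 in HoxA9-Ct ES and 4.99 in parental ES cells, 5.26-fold. Selenop, a secreted selenium carrier, was at 3.004 and 3.19 against -0.20, with 0.62 in parental ES cells, 9.86-fold. Jdp2, a repressor of the AP-1 family, was at 1.00 and 0.87 against -2.02, with -0.36 in parental ES cells, 7.78-fold. Pdpn, a mucin-like membrane protein, was at 1.995 and 2.11 against -0.10, 4.46-fold. Beside AK053996, another 13 probes name 7 cDNA or transcript entries without a RefSeq symbol; they lay 3.03 to 5.33 above HoxA9-Ct ES in clone #1 and 3.68 to 6.16 in clone #9, with clone #9 above clone #1 at each by 0.63 to 0.95.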
